A study of Rattus norvegicus with 6 samples.

Results

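Apolipoproteins are the proteins that coat lipoprotein particles, and the genes described here are 9 apolipoprotein genes and Mttp, which encodes the large subunit of the microsomal triglyceride transfer protein. They had been listed as Apoa1, Apoa2, Apoa4, Apoa5, Apob, Apoc2, Apoc3, Apoe, Apoh and Mttp, with adult and P10 islets of these data already compared. A probe belonged to a gene if its RefSeq transcript maps to the gene symbol, which found 1 probe each for 8 of the 10 genes, of 13903 genes named on the array. No probe was matched to Apoa1 or Apoc3. Because the list was drawn up from the difference between the stages, that difference is given for these genes as a description, without a test.

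Pancreatic islets, the endocrine cell clusters of the pancreas, had been isolated by collagenase digestion, with 3 samples from adult males and 3 pooled samples from 10-day-old rats (P10), none of them treated. The sources used here name no strain, no age for the adults and no sex for the P10 animals, and a pool mixes the islets of several animals. Total RNA of each sample had been labelled with Cy3 and hybridised to its own Agilent array of mRNA and long non-coding RNA probes. Levels are log2 signal relative to the 75th percentile of the array, so that 0 is the level of a fairly bright probe and negative values lie under it, and differences are adult minus P10.

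In the intestine and the liver, apolipoprotein B is the structural protein of chylomicrons and very low density lipoproteins, and the Mttp product loads it with triglyceride in the endoplasmic reticulum. The small apolipoproteins exchange between particles, where apolipoprotein C-II activates lipoprotein lipase and apolipoprotein E binds lipoprotein receptors on cells. Apolipoprotein E is also made by cells outside these organs.

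Each array had 24684 probes, of which 17829 to 18731 were well above background and 0 saturated. Adult arrays 2 and 3, and P10 arrays 1 and 2, differed least within their stage: their difference at one spot of a probe correlated with that at a second spot with r of 0.06 and 0.02, against 0.83 and 0.85 for the other adult pairs and 0.10 and 0.15 for the other P10 pairs. These 2 pairs were each averaged and counted as 1 sample, which leaves n = 2 per stage, and p-values measure the spread between these samples. The 2 adult samples lay on different array slides, so their spread includes any slide difference. The 2 P10 samples differed little more than repeated spots of a probe, as the r of 0.10 and 0.15 show. Over all 18109 probes tested, limma at an adjusted p threshold of 0.05 called 31.1% lower and 21.1% higher in adults, 52.2% in all, with a median difference of -0.24, or 5627 lower and 3829 higher. With median scaling the split was 4601 lower and 4993 higher and the median 0.06. Defining beta cell and acinar markers were present in both stages. Ins2 averaged 6.15 in adults and 6.74 at P10, a difference of -0.58 that did not pass (limma adjusted p = 0.23) and was 0.45 with quantile normalization. Cpa1 averaged 5.80 in adults and 7.74 at P10, a difference of -1.94, or -0.88 with quantile normalization.

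Promoter sequences of 5 of the 10 genes were available from RefSeq (GRCr8), covering 250 bases before to 50 after the gene start. Those of Apoa4 and Apoc2, lower in adults by the widest margins, and of Apoh, higher in adults, are shown so that they can be set against each other. Each is printed 5′ to 3′ on the strand of the gene, with matches to any searched motif in capitals. Apoa4 lies at chr8:55435529-55435828 on the plus strand, Apoc2 at chr1:88462316-88462615 on the minus strand and Apoh at chr10:93841742-93842041 on the plus strand.
Apoa4: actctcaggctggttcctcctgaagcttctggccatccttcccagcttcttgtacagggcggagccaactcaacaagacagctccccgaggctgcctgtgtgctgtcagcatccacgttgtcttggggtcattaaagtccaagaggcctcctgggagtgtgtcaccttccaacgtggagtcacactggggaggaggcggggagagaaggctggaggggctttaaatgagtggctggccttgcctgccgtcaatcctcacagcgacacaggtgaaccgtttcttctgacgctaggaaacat
Apoc2: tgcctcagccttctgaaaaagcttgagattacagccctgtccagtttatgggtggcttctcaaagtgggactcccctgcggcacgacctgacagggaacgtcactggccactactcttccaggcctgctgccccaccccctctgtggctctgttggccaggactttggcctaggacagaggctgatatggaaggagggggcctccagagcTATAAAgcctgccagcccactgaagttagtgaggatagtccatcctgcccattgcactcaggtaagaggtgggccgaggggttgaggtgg
Apoh: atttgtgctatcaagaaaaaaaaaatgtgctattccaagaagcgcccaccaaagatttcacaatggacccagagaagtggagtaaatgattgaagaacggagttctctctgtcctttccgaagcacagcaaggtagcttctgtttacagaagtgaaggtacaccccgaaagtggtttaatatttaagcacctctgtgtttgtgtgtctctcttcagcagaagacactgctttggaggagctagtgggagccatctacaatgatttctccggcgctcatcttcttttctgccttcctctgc

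The searched motifs reported here were TATAAA (the TATA box), AGGTCA (a nuclear receptor half-site), CAAAGTCCA (bound by HNF4) and AGATAA (bound by GATA factors). Only exact matches were searched, on both strands, so sites that differ by a letter were not found. No matches overlapped in the sequences shown. Among 33469 promoters of the same length, 14.2% held TATAAA, 16.2% AGGTCA, 0.391% CAAAGTCCA and 11.6% AGATAA. The Apoc2 promoter held TATAAA starting at position -40 from the gene start, and the Apoa4 and Apoh windows held no exact match to these motifs. Apoa5, which has 2 listed starts, held TATAAA at -30 and AGGTCA at -103 of the upstream start, and the 3 Apoe windows held no match.

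The structural protein and its loading enzyme came first in the pathway and were both far lower in adult islets. Apob (NM_019287) stood at -2.79, -2.51 and -2.57 on the adult arrays, against 1.91, 1.95 and 1.90 on the P10 arrays. The adult values lay together and the nearest P10 array was 4.41 above them, so the stages did not overlap. The means were -2.66 ± 0.17 in adults and 1.92 ± 0.02 at P10 (SD, n = 2 each), a difference of -4.58 (SE 0.16) or 23.9-fold. Apob was well above background on all 6 arrays, so a transcript signal was measured in adult islets too.

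Mttp (NM_001107727) stood at -6.13, -4.85 and -6.69 on the adult arrays, against 4.16, 4.21 and 4.17 on the P10 arrays. The P10 arrays were nearly identical while the adult arrays spread over more than 1 log2 unit close to background, and the stages did not overlap. The difference was -10.12 (SE 0.18), or 1116-fold, and -8.42 with normexp background correction. Ordered from the lowest difference, Mttp was number 10 and Apob number 144 of 11515 named probes, some of which were not well above background in one stage.

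Apoa4 and Apoc2 showed the widest gaps. Apoa4 (NM_012737), which encodes an apolipoprotein of chylomicrons secreted by enterocytes, had measured values of -9.90, -9.77 and -8.42 on the adult arrays, none of them well above background, against 4.71, 4.94 and 4.91 on the P10 arrays. Adult islets were at least 7730.5-fold lower, taking as the adult level the lowest signal that is well above background on each array. That bound holds for the processed signals used here. With normexp the difference was -9.59, a smaller fold than that bound. The measured means were -9.50 ± 0.57 in adults and 4.87 ± 0.06 at P10 (SD, n = 2 each). In processed signal before scaling, Apoa4 gave 2.75, 2.34 and 5.70 units on the adult arrays, against 26622.5, 29772.3 and 30017.9 on the P10 arrays.

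Apoc2 (NM_001085352), the lipoprotein lipase cofactor, stood at -6.60, -9.64 and -6.44 on the adult arrays, against 5.58, 5.76 and 5.42 on the P10 arrays. Adult array 2 was not well above background and lay about 3 log2 units under the other adult arrays, which were just above it. The difference was -12.86 (SE 0.54), with a 95% interval from -14.37 to -11.35, and -10.05 with normexp. With all 6 arrays as separate samples it was -13.15 (SE 0.87). Without adult array 1 it was -13.58, and on the first slide alone, which holds adult array 1 and the P10 arrays, -12.19. That interval is wider than those of Apoa4 and Mttp.

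Apoe departed from this group. Apoe (NM_138828), a receptor ligand made by many cell types including macrophages and glia, stood at -1.41, -1.08 and -0.99 on the adult arrays, against -0.49, -0.54 and -0.53 on the P10 arrays. The stages did not overlap, and the nearest arrays differed by -0.44, a much narrower gap than for the genes above. The means were -1.22 ± 0.27 in adults and -0.52 ± 0.01 at P10 (SD, n = 2 each), a difference of -0.70 (SE 0.19) or 1.63-fold. The median of all probes tested was -0.24. Before scaling the order was the opposite, with processed signals of 985, 968 and 983 units on the adult arrays, against 723, 664 and 695 units on the P10 arrays. Median scaling gave -0.40 and quantile normalization -0.68.

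Apoh went the other way. Apoh (NM_001009626), whose product beta-2-glycoprotein I binds anionic phospholipids in plasma, stood at -0.44, -0.75 and -0.78 on the adult arrays, against -6.01, -7.20 and -5.70 on the P10 arrays. P10 array 2 was not well above background, and the other P10 arrays were little above it. All adult arrays were well above it, with a mean level at percentile 54.0 of the named probes. The means were -0.60 ± 0.23 in adults and -6.15 ± 0.64 at P10 (SD, n = 2 each), a difference of 5.55 (SE 0.37) or 46.9-fold, and 3.14 with normexp. Ordered from the highest difference, Apoh was number 8 of the 11515 named probes.

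The remaining measured genes were near the limit of the array. Apoa2 (NM_013112), of high density lipoproteins, was well above background on the 3 adult arrays, at -7.40, -5.99 and -6.19, and on 0 of the P10 arrays, at -7.58, -7.51 and -8.23. Adult islets were at least 1.30-fold higher, the difference of measured means was 1.14 (SE 0.55), and it turned to -0.57 with normexp. Adult array 1 and P10 array 2 were 0.10 apart, so these values give no firm order. Apoa5 (NM_080576), which regulates plasma triglyceride and is best known from liver, had no array well above background and did not enter the fit.

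**Figure D1:**
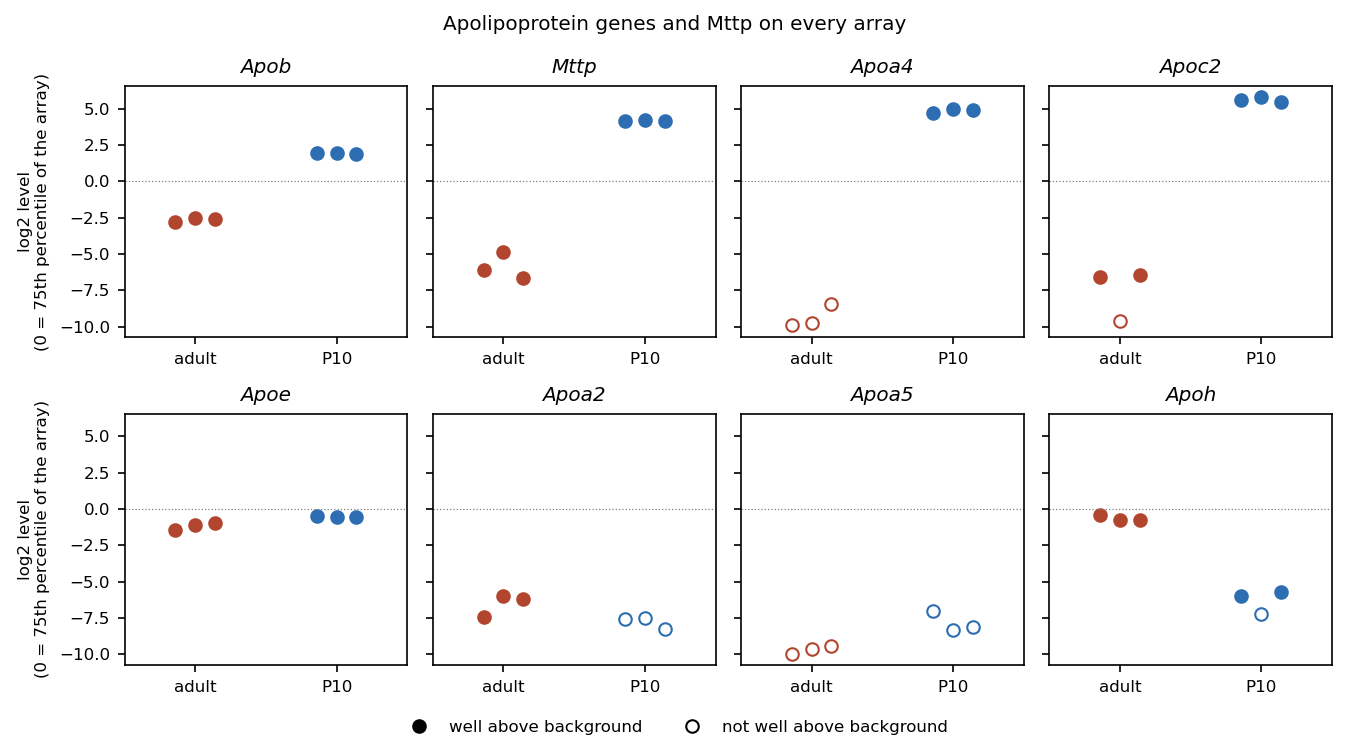
Log2 level of the 8 genes with a probe on each of the 3 adult and 3 P10 arrays, relative to the 75th percentile of the array (dotted line at 0), with open circles for spots not well above background. Apob, Mttp, Apoa4 and Apoc2 lie lower on all adult arrays, Apoh lies higher, and Apoe is within about 1 log2 unit in both stages.

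The median difference of the 7 genes that entered the fit was -4.58, which the choice of the list by the same difference had set.

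The plot of differences under other processing shows how far each value moved. Under the settings drawn Apob ranged from -4.71 to -4.25 and Apoe from -0.89 to -0.40. The very dim ends of Apoa4, Apoc2, Mttp and Apoh were compressed by normexp, which adds an offset of 50 units to every spot.

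**Figure D2:**
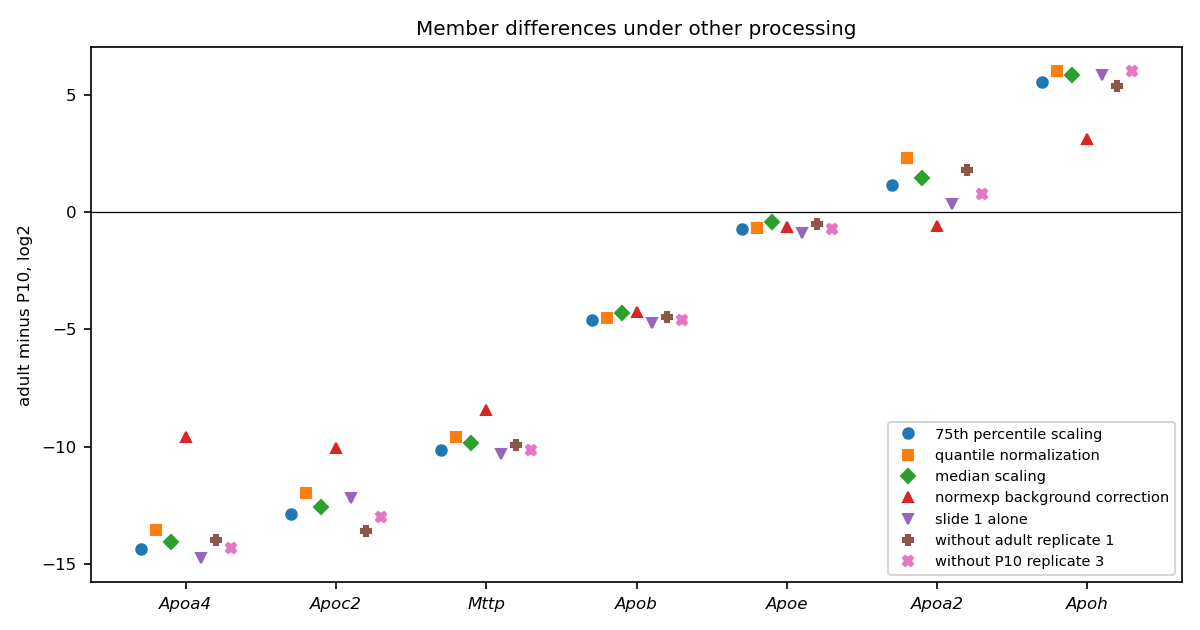
Adult minus P10 difference in log2 of the 7 fitted genes under 75th percentile scaling and 6 alternatives, each with its own symbol. Apoa4, Apoc2, Mttp, Apob and Apoe stay under 0 and Apoh stays over 0 in all of them, while Apoa2 goes to -0.57 with normexp.

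The other genes of lipoprotein handling were taken from 5 lists of 87 genes, of which 66 had a probe and 60 were tested. They were chosen by function, but with earlier results of these data known, so their counts are not an independent test. Of these 60, limma called 33 (55.0%) lower and 11 (18.3%) higher in adults, with a median difference of -1.08. Of all probes, mRNA and long non-coding RNA alike, 31.1% were lower and 21.1% higher, with a median of -0.24. The count of higher genes was 16 with quantile normalization and 5 with normexp. Of the 18109 probes, 5130 and 2048 were higher in these settings, beside 3829. Without one of the P10 samples fewer probes were called over the whole array too. Lower counts in that setting are therefore not a trait of one list.

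Among the other apolipoproteins, 3 of 7 (42.9%) were lower and 0 higher, beside 31.1% and 21.1% of all probes, with a median of -1.15. With quantile normalization 3 were lower and 2 higher, with a median of -0.50. Apoc1, an inhibitor of lipoprotein lipase activity, averaged -5.25 ± 0.40 in adults and -2.76 ± 0.09 at P10 (SD, n = 2 each), a difference of -2.49 (SE 0.24, limma adjusted p = 0.00407). Apom, a carrier of sphingosine 1-phosphate on high density lipoprotein, fell by 2.05 (limma adjusted p = 0.00772). Clu, the secreted chaperone also called apolipoprotein J, was bright in both stages at 4.73 and 5.88 and fell by 1.15 after scaling (limma adjusted p = 0.00711). Before scaling, the Clu signals of the stages overlapped, at 66098, 57505 and 53760 units in adults, against 60776, 60842 and 56328 at P10. Saa4 stood at -1.22, Apod at 0.86 and Apobec1, the Apob mRNA editing enzyme, at -0.28, and none of these passed the test (limma adjusted p = 0.093, 0.0622 and 0.171). The fall of Apom did not pass with normexp (limma adjusted p = 0.0589), and that of Clu was -0.50 with quantile normalization and did not pass without either P10 sample (limma adjusted p = 0.11 and 0.0838).

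Of 16 genes of assembly and lipid loading, 10 (62.5%) were lower and 3 (18.75%) higher in adults, with a median of -1.62. Of all probes 31.1% were lower and 21.1% higher. With normexp 9 of these genes were lower and 1 higher. Mogat2, which makes diacylglycerol from absorbed monoacylglycerol in enterocytes, averaged -3.75 ± 0.05 in adults and 2.49 ± 0.02 at P10 (SD, n = 2 each), a difference of -6.24 (SE 0.13, limma adjusted p = 0.00115). Dgat2, of the last step of triglyceride synthesis, fell by 6.04 (limma adjusted p = 0.00116), and Tm6sf2, needed for lipid loading of apolipoprotein B particles, fell by 5.12 (limma adjusted p = 0.00116). The sterol transporter gene Abcg5 had no adult array well above background. On the processed signals used here adult islets were lower by at least 5.42-fold for Abcg5 (limma adjusted p = 0.0314). The 3 called higher, named after their values were seen, were Sar1b at 0.63, Soat1 at 0.87 and Abcg1 at 1.74 (limma adjusted p = 0.0257, 0.0358 and 0.00257). The 3 that did not pass were the vesicle export genes Sar1a and Surf4 and the cholesterol exporter gene Abca1. Sar1a stood at 0.0055 (limma adjusted p = 0.976), Surf4 at -0.23 (limma adjusted p = 0.532) and Abca1 at 0.46 (limma adjusted p = 0.105). P4hb, the partner subunit of the Mttp product, was picked out after its value was seen. It averaged 4.70 ± 0.17 in adults and 6.02 ± 0.01 at P10 (SD, n = 2 each) and fell by 1.32 after scaling (SE 0.16, limma adjusted p = 0.00608), against the difference of -10.12 of Mttp. Before scaling, the P4hb signals of the stages overlapped, at 74423, 49956 and 45718 units in adults, against 63596, 64596 and 65509 at P10. With quantile normalization P4hb stood at -0.69, and without either P10 sample it did not pass (limma adjusted p = 0.072 and 0.0721), and Abcg5 did not pass with normexp, at -1.16 (limma adjusted p = 0.136), or without P10 arrays 1 and 2 (limma adjusted p = 0.0614).

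Of 8 lipase and plasma remodelling genes, 5 (62.5%) were lower and 1 (12.5%) higher, beside 31.1% and 21.1% of all probes, with a median of -1.61. Sel1l, of endoplasmic reticulum quality control and lipoprotein lipase maturation, fell by 2.65 (limma adjusted p = 0.00606), the lipase inhibitor gene Angptl4 fell by 2.38 (limma adjusted p = 0.00312), Lcat, which esterifies cholesterol on high density lipoprotein, fell by 2.12 (limma adjusted p = 0.00188) and the hepatic lipase gene Lipc fell by 2.00, or by 1.23 with normexp (limma adjusted p = 0.00872 and 0.0391). Gpihbp1, which anchors lipoprotein lipase on capillaries, stood at -1.23 (limma adjusted p = 0.0626), and at -0.71 with quantile normalization, where it passed (limma adjusted p = 0.0464), and Lipg at 0.32 (limma adjusted p = 0.484). Lpl itself, singled out after its value was seen as the enzyme that Apoc2 serves, rose by 0.84 (limma adjusted p = 0.0158), and did not pass without either P10 sample (limma adjusted p = 0.164 and 0.214).

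The receptor list ran the other way in its balance, with 5 of 9 genes (55.6%) higher and 2 (22.2%) lower and a median of 1.05. Of all probes 21.1% were higher and 31.1% lower. With normexp, however, only 2 receptor genes were higher, with a median of 0.42, beside 2048 of the 18109 probes. Olr1, a scavenger receptor for oxidised LDL, was not well above background at P10. On the processed signals used here it was at least 6.30-fold higher in adults (limma adjusted p = 0.00133). Lrp2 rose by 1.59 (limma adjusted p = 0.00647) and Vldlr by 1.16 (limma adjusted p = 0.015). Amn, the partner of cubilin, averaged -6.34 ± 0.66 in adults and 0.20 ± 0.01 at P10 (SD, n = 2 each) and fell by 6.54 (limma adjusted p = 0.00163). Its partner gene Cubn stood at 0.79 (limma adjusted p = 0.0665), from -0.14 with normexp to 1.42 with quantile normalization, and Lsr, a lipolysis-stimulated receptor gene, at -0.42 (limma adjusted p = 0.0589). With normexp Olr1 stood at 0.42 and Lrp2 at 0.60 and neither passed (limma adjusted p = 0.26 and 0.0702). Without P10 array 3 the rises of Vldlr and Lrp2 did not pass (limma adjusted p = 0.111 and 0.0582), and without P10 arrays 1 and 2 that of Vldlr did not (limma adjusted p = 0.109).

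Of 20 transcription regulators known from apolipoprotein genes, liver or gut, 13 (65%) were lower and 2 (10%) higher, with a median of -1.06. Of all probes 31.1% were lower and 21.1% higher. With normexp 9 regulators were lower and 1 higher, beside 2657 and 2048 of the 18109 probes. Gata4 fell by 5.58 (limma adjusted p = 0.00163), the repressor gene Nr0b2 fell by 5.17 (limma adjusted p = 0.00116), Nr5a2 fell by 4.24, or by 2.73 with normexp (limma adjusted p = 0.00133 and 0.011) and the intestinal factor gene Cdx2 fell by 4.01 (limma adjusted p = 0.00154). Srebf2 stood at 0.46 and Nr2f1 at 0.40, and these did not pass (limma adjusted p = 0.0524 and 0.206). Hnf4a, a known activator of apolipoprotein genes whose motif was searched above, was named after its value was seen and fell by 1.78 (limma adjusted p = 0.00449).

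**Figure D3:**
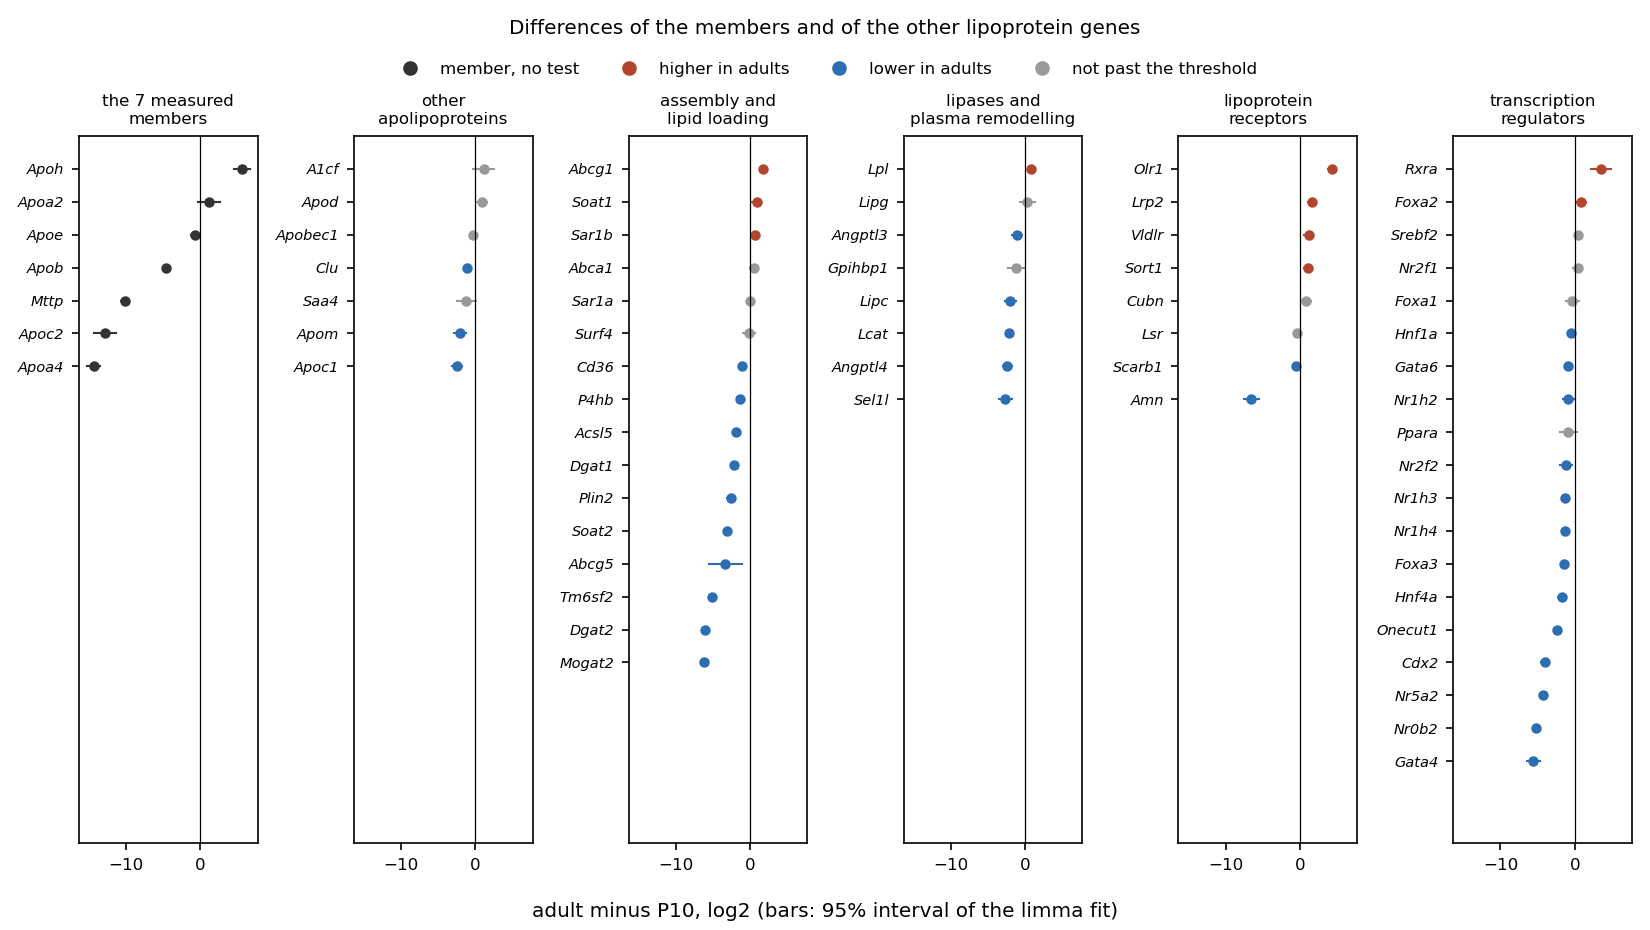
Adult minus P10 difference in log2, with its 95% interval from the limma fit, for the 7 fitted apolipoprotein and Mttp genes and for 58 of the 60 other lipoprotein genes in 5 lists. Of the 58 drawn, 33 passed the threshold as lower in adults (blue) and 10 as higher (red), and the receptor list has 4 of 8 in red.

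Markers of other cell types that express apolipoproteins moved on the same arrays. Their counts, and those of acinar and beta cell markers below, stand beside 31.1% of all probes lower and 21.1% higher in adults. All RNA came from whole islet preparations, so fewer cells of a type and less RNA per cell cannot be told apart. Of 22 listed enterocyte markers, 15 had a probe, 13 were tested and 13 were lower in adults, and the levels of these 13, summed on the linear scale relative to the 75th percentile, ran from 11.9 to 12.4 in adults, against 201 to 213 at P10. Fabp2, the fatty acid binding protein gene of enterocytes, was well above background on 1 adult array and on 3 P10 arrays, at -8.84, -7.49 and -7.91 on the adult arrays, against 6.29, 6.36 and 6.19 on the P10 arrays. Prap1 fell by 12.49 and Alpi fell by 9.96 (limma adjusted p = 0.00115 and 0.00133), while Vil1 stood at 2.94 in adults and 4.56 at P10. The part of enterocyte transcripts in the values of Apoa4, Apoc2, Mttp and Apob was not tested.

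Hepatocyte markers did not go one way. Of 18 listed, 17 had a probe, 13 were tested, 6 were lower and 4 higher, and the summed level of those tested ran from 13.6 to 18.1 in adults, against 16.3 to 17.5 at P10. Serpina1, at 3.52 in adults and 2.86 at P10, and Alb were the brightest of those tested, so the sum rests mostly on them. The difference of Serpina1 did not pass (limma adjusted p = 0.0603). Alb stood at 1.20 in adults and 2.22 at P10 and did not pass without either P10 sample (limma adjusted p = 0.139 and 0.105), and no array had Ahsg, Asgr1 or Cyp7a1 well above background. The urea cycle gene Cps1, which enterocytes also express, fell by 7.50 and the fibrinogen chain gene Fga fell by 7.18 (limma adjusted p = 0.00116 each). The fibrinogen chain gene Fgg rose by 4.34, or 2.41 with normexp, and Fgb, named after its value was seen, rose by 1.90 (limma adjusted p = 0.00133, 0.00597 and 0.00364). Their part in the value of Apoh was not tested.

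Macrophage and Schwann cell markers bear on Apoe, which both cell types express. All 12 tested macrophage markers, of 14 listed, were higher in adults, with a summed level of those 12 of 33.6 to 36.3 in adults, against 12.3 to 12.6 at P10. Lyz2 was among the 2 not tested, having no usable spot on 1 P10 array. Of these, Marco rose by 4.18, Adgre1 by 2.26, C1qb by 1.80, C1qa by 1.78 and Csf1r by 0.89 (limma adjusted p = 0.00983, 0.00194, 0.00346, 0.00238 and 0.0347). Marco was well above background on 1 of 3 P10 arrays and stood at 1.46 with normexp. Without one of the P10 samples 5 of 13 and 4 of 12 passed, and Csf1r was not among them (limma adjusted p = 0.174 and 0.216), nor with normexp (limma adjusted p = 0.0502). Of 7 tested Schwann cell markers 3 were higher (1 with normexp), S100b at 1.33 among them but not without either P10 sample (limma adjusted p = 0.0913 and 0.0942), 1 was lower, and Sox10 stood at 0.18 without passing (limma adjusted p = 0.322). Apoe stood lower in adults, where macrophage markers stood higher, and the part of these cells in its value was not tested.

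Acinar markers were lower in 11 of 13 cases, and among them Rbpjl fell by 6.12 and Ptf1a fell by 4.08 (limma adjusted p = 0.00133 and 0.00224). With quantile normalization 6 acinar markers were lower and 1 higher, with a median of -0.52 against -1.60, and without either P10 sample 6 were lower. Beta cell markers were higher in 4 of 7 cases, Slc2a2 by 3.18, Nkx6-1 by 2.92 and Slc30a8 by 2.87, and lower in 1.

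Apoe and Apoc2 lie in one gene cluster, and Apoa4 and Apoa5 in another with Apoa1 and Apoc3, so their neighbours in the RefSeq gene order of GRCr8 were read off, 7 named protein-coding genes on each side. In the first cluster the order is Apoc2, Apoc4, Apoc1, Apoe and Tomm40. The values there stood side by side at -12.86 for Apoc2, -2.49 for Apoc1, -0.70 for Apoe and -0.0080 for Tomm40, a mitochondrial import gene (limma adjusted p = 0.975). On the far side of Apoc2, Clptm1 stood at 0.53 (limma adjusted p = 0.0527). Beyond Tomm40, Nectin2 stood at -0.11 and Bcam at 0.12 (limma adjusted p = 0.632 and 0.533), and Cblc, 4 genes from Apoe, fell by 2.44 (limma adjusted p = 0.00157).

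Around Apoa4, the nearest tested genes were Pafah1b2 at 0.50 (limma adjusted p = 0.0697) and Bud13 at -0.020 (limma adjusted p = 0.92). Further out Sidt2 fell by 1.34, while Tagln and Cadm1 rose by 1.93 and 1.88 (limma adjusted p = 0.00536, 0.00217 and 0.00321). Sidt2 did not pass without either P10 sample (limma adjusted p = 0.065 and 0.0714). These neighbours were chosen by position after the values of the cluster genes were seen.

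**Figure D4:**
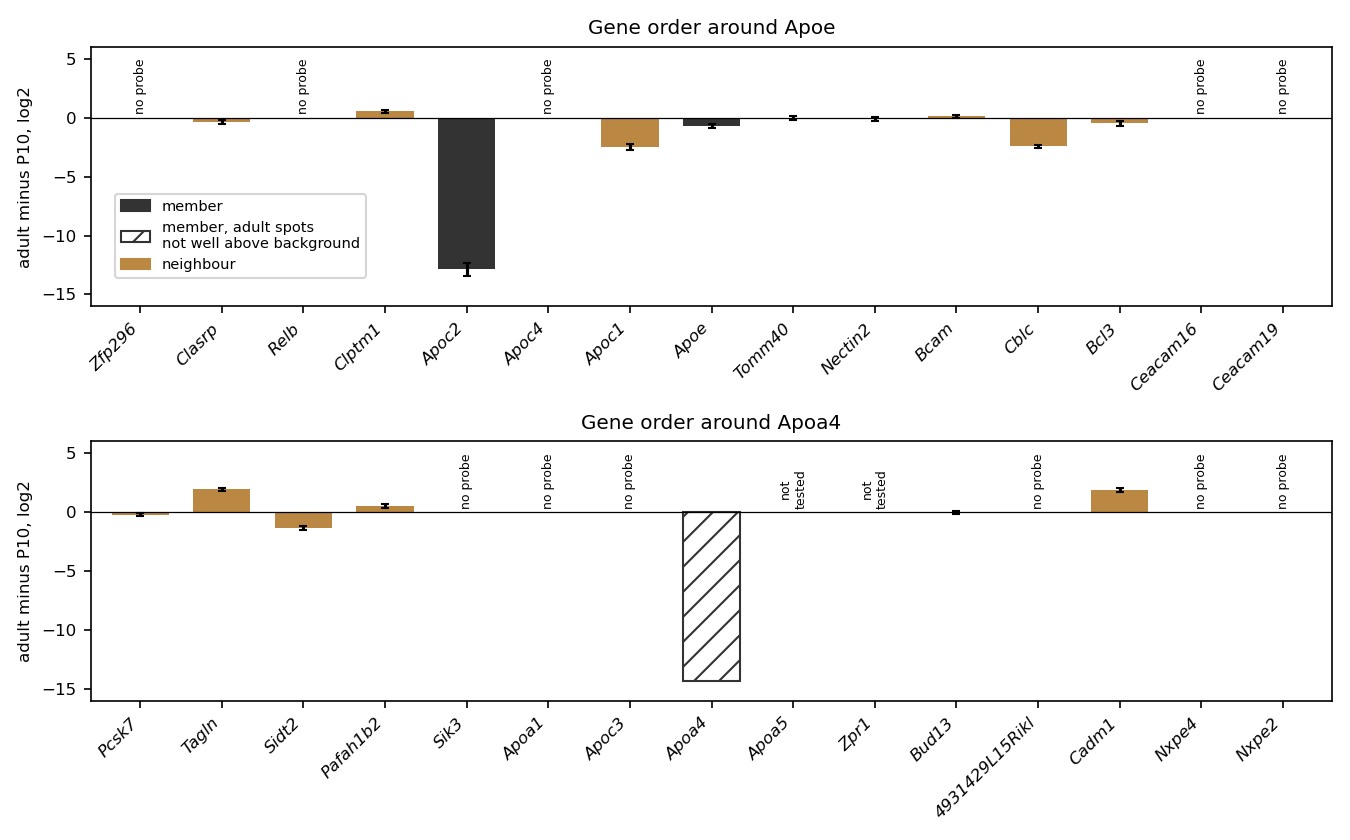
Adult minus P10 difference in log2 (bars, with the SE as error bar) of genes in RefSeq order around Apoe (top) and Apoa4 (bottom), dark for apolipoprotein genes of the list and light for neighbours. Apoc2 reaches -12.86, and tested neighbours stay between -2.49 and 1.93. The hatched bar of Apoa4 has no error bar because its adult spots were not well above background. Adult islets were at least 7730.5-fold lower for Apoa4 on the signals drawn, and its difference was -9.59 with normexp.

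Genes outside the lists were ranked by likeness, as the root mean square distance over the 6 arrays between log2 profiles centred on their mean, among 11366 named protein-coding probes. The profile nearest to the median of the 7 genes, which equals that of Apob, was Or6s1 at 0.05, followed by Gdpd5 at 0.06, Fcgrt at 0.06, Cldn10 at 0.08 and Ptger3 at 0.09, with Pearson r of 0.999 or more over 6 arrays that fall into 2 stages. For the median of Apoa4, Apoc2 and Mttp, a grouping made after their values were seen, the nearest were Ms4a10 at 0.80, Clrn3 at 1.31, Pck1 at 1.33, Slc5a11 at 1.56 and Hsd17b2 at 1.60. For Apoh, likewise added, they were Akr1c15 at 0.34 and Tmem35a and Aass at 0.50 each. Such distances mostly reflect how much a gene differed between the 2 stages.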

How the data were processed

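The members and the gene lists were chosen with earlier results of these data known. The submitters' processing notes name Agilent Feature Extraction 11.0.1.1 for the 1-colour arrays, and the deposited processed intensity was background-subtracted and detrended within each array, per the file headers. The authors also deposited normalized log2 values by an unstated method. 100% of their mRNA and 99.6% of their lncRNA entries lay within 0.05 of quantile-normalized processed signals, so the scale is log2 with no centring of genes. Their column medians ran from 9.92 to 9.94 and from 7.39 to 7.58, and 3 of the 8 genes with a probe, Apob, Apoe and Mttp, were in that table.

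Probes were named by RefSeq accession through a gene table of GRCr8, while the array annotation uses the older rn4 build. Outlier-flagged spots were left out (none at the 8 genes), spots of a probe averaged in log2, and the 75th percentile of each array subtracted. A probe was tested if every array of either stage had it well above background. Tests used limma 3.58.1 in R 4.3.3 (lmFit, eBayes, Benjamini-Hochberg over all probes, threshold 0.05), and each gene took its brightest probe. Normexp used median spot and background signals, since the files give no mean spot signal. The fit was tested on simulated data. The file headers give 2 scan times, with array positions repeated between them, so 2 slides: the first held adult array 1 and the P10 arrays, the second adult arrays 2 and 3. The number of arrays limits the precision. From the lists, genes named were up to 4 past the threshold with the largest change and up to 3 others with the highest level, and for marker lists the 3 with the largest change and the defining markers. Some genes of the lists and a searched motif are counted but not reported here by name.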

Additional observations from a re-analysis of the deposited data

How the results depend on the processing

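Across the alternatives, 82 gene differences were recomputed 1220 times, of which 1094 kept their direction and side of the threshold, 93 came past it, 31 no longer passed and 2 changed sign. Those 2 were Apoa2 at -0.57 and the Schwann cell gene Cdh19 at -0.26, both with normexp, and both genes are near background at P10. With normexp, pathway genes higher in adults numbered 5, and all probes 2048 higher and 2657 lower. Without the filter on dim probes 8521 probes were lower. With all arrays as separate samples and the slide as a block 9057 were lower, and on slide 1 alone 9032, both resting on 1 adult array. Leaving out one counted sample at a time gave 3 to 16 pathway genes higher and 20 to 39 lower, and for all probes 1548 to 5767 higher and 2345 to 8893 lower. Without adult array 1 the split was 5767 higher and 7501 lower, without P10 array 3 it was 1550 and 2532, and without P10 arrays 1 and 2, 4 pathway genes were higher. The lone sample of a stage is then assumed to vary like the other stage. With the replicate number of the labels as a replicate block over all 6 arrays, 14 pathway genes were higher and 35 lower, and without it 16 and 38. Same-numbered arrays did not deviate together (r of -0.21, 0.08 and -0.24), so they share only a number. Signal over background limits Apoa2, Apoa5 and the adult values of Apoa4 and Apoc2.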
